A study of Mus musculus with 12 samples.

Results

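The kinesin motor genes of the mouse were followed through zygote libraries made with and without knockdown of Lsm1. Members were the protein-coding genes whose symbol is Kif followed by a number and at most 1 letter, or Kifc followed by a number. This rule found 41 genes with 63 RefSeq transcripts, out of 25091 genes, unmatched transcripts and repeats in the quantification. Total RNA-seq compared B6D2F1 zygotes injected with siRNA against Lsm1 (Lsm1_KD) with zygotes injected with scramble siRNA (Ctrl). RIP-seq, in which RNA bound to a protein is pulled down and sequenced, compared zygotes injected with Lsm1_3XFlag mRNA (FLAG Input and FLAG IP) with control zygotes that, by their labels, received Lsm1 mRNA without the tag (Ctrl Input and Ctrl IP). The antibody field of the labels gives an anti-FLAG M2 gel for both IP groups, while the titles of the control libraries name IgG, and which of them describes the Ctrl IP was not settled here. Each of the 6 groups held 2 libraries. By the labels, the females of every group were 8 to 10 weeks old, superovulated and mated, and zygotes were taken 18 to 20 h after hCG and then injected, the controls included. The study also describes an Lsm1 knockdown by injection of immature (GV) oocytes that were then matured and fertilised in vitro, so the stage at which the RNA-seq zygotes were injected is uncertain. The labels do not say whether the libraries of a group came from separate collections, and p-values measure the spread between these libraries. The RNA-seq libraries were made with a ribosomal RNA depletion kit and the RIP-seq libraries with another stranded total RNA kit, so tests were made within each experiment only, and levels of both are set side by side as descriptions. Since these are bulk samples, fewer transcripts per zygote and fewer zygotes contributing RNA cannot be told apart.

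Kinesins are ATP-driven motors that walk along microtubules or take their ends apart. In dividing cells some of them build the bipolar spindle, move and align chromosomes, and organise the central spindle and the midbody where the cell is cut in 2, while others carry vesicles, organelles and RNA through the cytoplasm or work in the cilium. The oocyte and the zygote lack most new transcription and run the meiotic and the first mitotic spindle largely on stored maternal mRNA. LSM1 belongs to a ring of LSM proteins in the cytoplasm that binds deadenylated mRNA and promotes its decapping and decay.

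The libraries held 4636492 to 13968315 estimated counts in the RNA-seq and 9865512 to 31586450 in the RIP-seq. The normalized count of Lsm1 was 63.6 and 71.0 CPM (counts scaled to a library of 1e+06, adjusted by edgeR's TMM factors) in Lsm1_KD and 143 and 147 CPM in Ctrl, which differed by -1.10 on the log2 scale (standard error 0.22, edgeR adjusted p = 0.0118). Lsm1 stood at 9741 and 14980 CPM in the FLAG Input but at 16.1 and 16.4 CPM in the Ctrl Input, so the control zygotes showed no excess of the Lsm1 mRNA they are labelled to have received. Repeats took 12.7% of the counts of FLAG IP replicate 1 and at most 2.63% in the other 11 libraries, so that this library was unlike the rest. All 12 oocyte markers checked, among them Zp1 to Zp3, Gdf9 and Mos, were above 0 in every library. Summed over the list, markers of cumulus cells reached 10.9 to 16.4 TPM (transcripts in 1e+06, a unit that divides by transcript length) in the RNA-seq and 5.37 to 22.6 TPM in the RIP-seq, highest in FLAG IP replicate 1. Of 5 sperm markers, 4 were at 0 in each RNA-seq library, and the list summed to 27.0 and 38.4 TPM in Lsm1_KD and 10.8 and 9.56 TPM in Ctrl. In Lsm1_KD 2 of 12 oocyte markers were called higher and 2 lower, against 6.45% and 4.56% of all features. In the FLAG IP over its input 5 of 12 oocyte markers were lower, against 5.48% of all features. There 2 of 8 tested cumulus markers and 1 of 4 tested markers of the 2-cell embryo were higher, against 21% of all features. The part of these differences in the results that follow was not tested.

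The siRNA target is shown first because the guide strand of an siRNA can pair with mRNAs other than Lsm1 through its seed, the bases 2 to 8 of the guide. The target in the Lsm1 mRNA (RefSeq, GRCm38.p6) is coding, on the plus strand of chromosome 8, and runs from 25792216 in exon 2 to 25793685 in exon 3 across the intron between them. Below, the target of the siRNA is set beside matches to the seed in kinesin mRNAs, read 5′ to 3′, with the bases that pair with the seed in capitals.
Lsm1 siRNA target: gatcaatttgcTAACTTAg
Kif3b: tgcagattagcTAACTTAatctgcccgaac
Kif3a: cttgatgtgtaTAACTTAactgcaagacca
Kif15: gattcctacgaTAACTTAcaagaagtaatg
Kif1c: acttttaaaaaTAACTTAgatgatgaatgt
Kifc5b: aacggttttatTAACTTAacggttttagct
The Kif3b site, in the 3′ untranslated region on the plus strand of chromosome 2 with its seed match at 153330290 to 153330296, paired with the guide over 9 bases counted from guide base 2. The other sites of tested kinesins paired over 7 bases only. The matches of Kif3a (chromosome 11, 53570760 to 53570766) and Kif15 (chromosome 9, 122999229 to 122999235) are coding, and those of Kif1c (chromosome 11, 70730223 to 70730229) and Kifc5b (chromosome 17, 26932521 to 26932527) lie in the 3′ untranslated region, all on the plus strand. A seed match was found in 7 of the 32 kinesin genes tested in the knockdown (21.9%) and in 1465 of 11135 tested genes of the annotation (13.2%). Taken by the longest transcript of each gene, genes with a match were longer (median 4583 nt against 2903 nt without). None of the 4 kinesins that fell in Lsm1_KD held a match. The 7 kinesins with a match had a median log2 fold change of 0.32, the value of Kif21a, and the 25 without had -0.35. Kif21a had 1.11 and 4.78 CPM in Lsm1_KD and 2.90 and 1.93 CPM in Ctrl. Of the other matched kinesins, Kif1c, Kif3a and Kifc5b lay above 0 (0.85, 0.88 and 0.83). Kif3b, Kif5b and Kif15 lay below 0 (-0.61, -0.47 and -0.99). For all genes the medians were -0.07 with and 0.02 without a match. A match is a description of these letters and not a measured site, and an effect of the siRNA through its seed was not tested.

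Kif23 was the most abundant kinesin transcript of the zygote. KIF23, or MKLP1, is the motor of centralspindlin, the complex that bundles midzone microtubules for cytokinesis. Its TPM was 755.9 and 971 in Ctrl and 393 and 351 in Lsm1_KD. It took 42.9% and 45.4% of the summed TPM of all kinesins in Ctrl, and its lowest Ctrl value lay above the highest value of every other member. Kif4, a chromokinesin that works with PRC1 at the midzone, followed with 134 and 160 TPM, and Kif20a, which brings the chromosomal passenger complex to the midzone, with 61.2 and 143 TPM. The ranges of Kif4 and Kif20a overlapped. Below them Kif3a, Kif14, Kif2a, Kif20b, Kif17, Kif18a and Kifc3 had means of 82.0 down to 49.2 TPM, and neighbours in this order overlapped in their Ctrl values.

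The summed TPM of the kinesins was 1239 and 1083 in Lsm1_KD and 1763 and 2141 in Ctrl, without overlap. With Kif23 left out the sums were 847 and 732 against 1008 and 1170, also without overlap. On the TPM scale the median of all tested features was lower in Lsm1_KD too, by a log2 fold change of -0.23 in log2(TPM + 1). In the RIP-seq inputs the family summed to 1202 to 1538 TPM and Kif23 made up 26.2% to 27.0% of it. Kif23 ranked first in all 6 groups by mean TPM. Kif3a, a subunit of heterotrimeric kinesin-2, had rank 4 in Ctrl and rank 19 in the Ctrl Input, and Kif22, a chromokinesin that pushes chromosome arms outward, had ranks 11 and 3. These ranks come from different library kits and injections, which cannot be told apart.

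**Figure D1:**
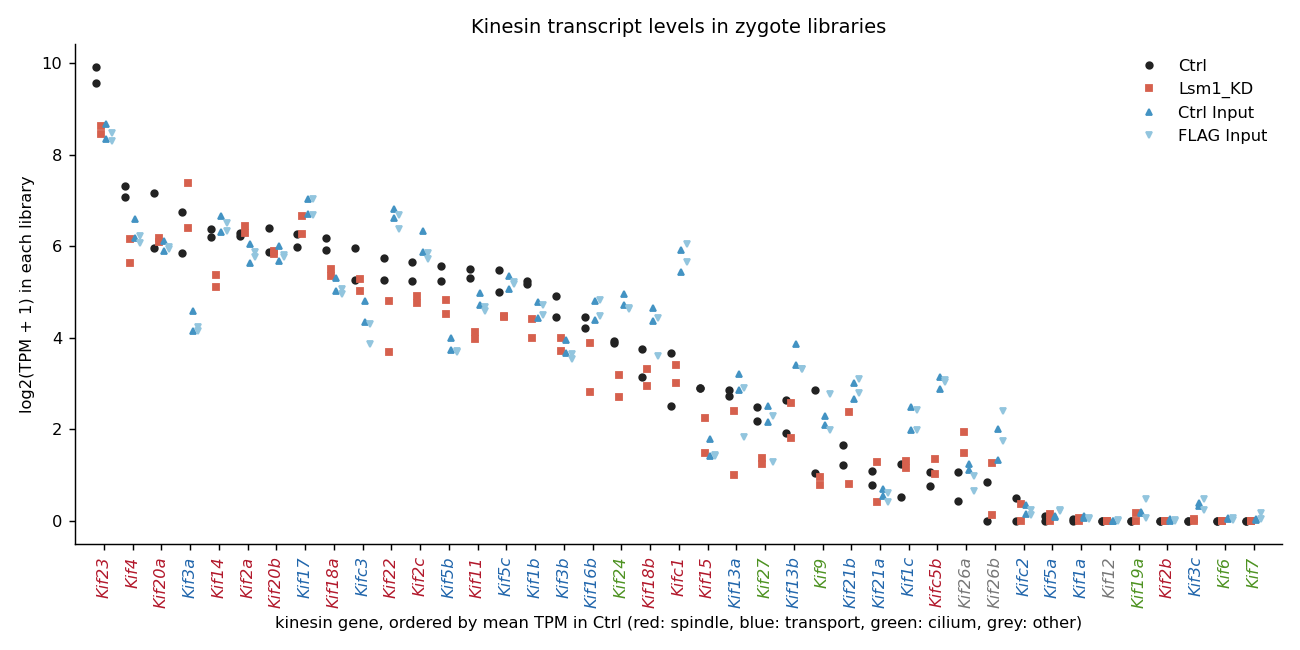
Level of each of the 41 kinesin genes in the 8 libraries of the RNA-seq and of the RIP-seq inputs, as log2(TPM + 1) on the vertical axis, with 1 point per library and genes ordered by mean TPM in Ctrl. Kif23 lies above all others in Ctrl, the right-hand genes lie at or near 0, and the Kif3a points of the RNA-seq lie above, and the Kifc1 points below, those of the inputs, which were made with another kit.

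At the low end, Kif2b, Kif6, Kif7 and Kif12 had 0 counts in all 4 RNA-seq libraries. The limit that a count of 0 allows, 3 counts per library, was 0.215 to 0.647 CPM of the library total (counting error only). Kif1a, Kif3c, Kif5a, Kif19a and Kifc2 had at most 4 estimated counts in any RNA-seq library. These 9 genes, mostly neuronal or ciliary motors, did not pass the abundance filter, and no change of theirs was detectable at this depth. No member was at 0 in all 12 libraries. Kifc1 and Kifc5b, minus-end-directed spindle motors, are close paralogs whose reads the quantification could have split between them, and their separate values are uncertain.

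The RNA-seq asked which transcripts changed when Lsm1 was knocked down. Among kinesins, 4 fell, all of the spindle or the midzone: Kif23, Kif11, Kif4 and Kif14. The falls were 1.72-fold to 2.16-fold. No kinesin rose at this threshold, and 28 of 32 tested members did not pass. Across all 11335 features tested by edgeR's quasi-likelihood test, 6.45% were called higher and 4.56% lower at a Benjamini-Hochberg adjusted p under 0.05, against 0% and 12.5% of the kinesins. At an unadjusted p under 0.05 in edgeR, 3 kinesins were higher (9.38%, against 14.2% of all features) and 9 lower (28.1%, against 12.9%). DESeq2 called 0 kinesins higher and 5 lower, with 958 and 802 features called in all. With a log2 fold change beyond 1 as well, 5.4% of all features were higher and 2.75% lower, against 0 and 2 kinesins, Kif11 and Kif4.

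Kif23 lies on the minus strand of chromosome 9 from 61917277 to 61946810 (GRCm38). Its normalized count was 670.0 and 633 CPM in Lsm1_KD and 1061 and 1426 CPM in Ctrl. Both knockdown libraries lay below both controls, and the log2 fold change was -0.93 (standard error 0.20, edgeR adjusted p = 0.0187).

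Kif11, on the plus strand of chromosome 19 from 37376382 to 37421863, encodes the tetrameric motor (Eg5) that slides spindle poles apart. It had 35.8 and 42.5 CPM in Lsm1_KD and 88.6 and 81.3 CPM in Ctrl. This was the largest fall of the 4, with groups well apart (log2 fold change -1.11, standard error 0.25, edgeR adjusted p = 0.0193).

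Kif4, on the plus strand of chromosome X from 100626065 to 100727271, had 169 and 123 CPM in Lsm1_KD and 262 and 327 CPM in Ctrl. Its groups did not overlap, and the log2 fold change was -1.02 (standard error 0.23, edgeR adjusted p = 0.0208). Kif14, on the plus strand of chromosome 1 from 136466301 to 136555938, acts in late cytokinesis with citron kinase. Its normalized count was 173 and 153 CPM in Lsm1_KD and 258 and 302 CPM in Ctrl, again without overlap. The log2 fold change was -0.78 (standard error 0.20, edgeR adjusted p = 0.0345), the last inside the threshold. Just outside it was Kif1b, a transport motor of mitochondria and synaptic vesicle precursors, with 74.8 and 59.5 CPM in Lsm1_KD, 107 and 118 CPM in Ctrl and an edgeR adjusted p of 0.0638.

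**Figure D2:**
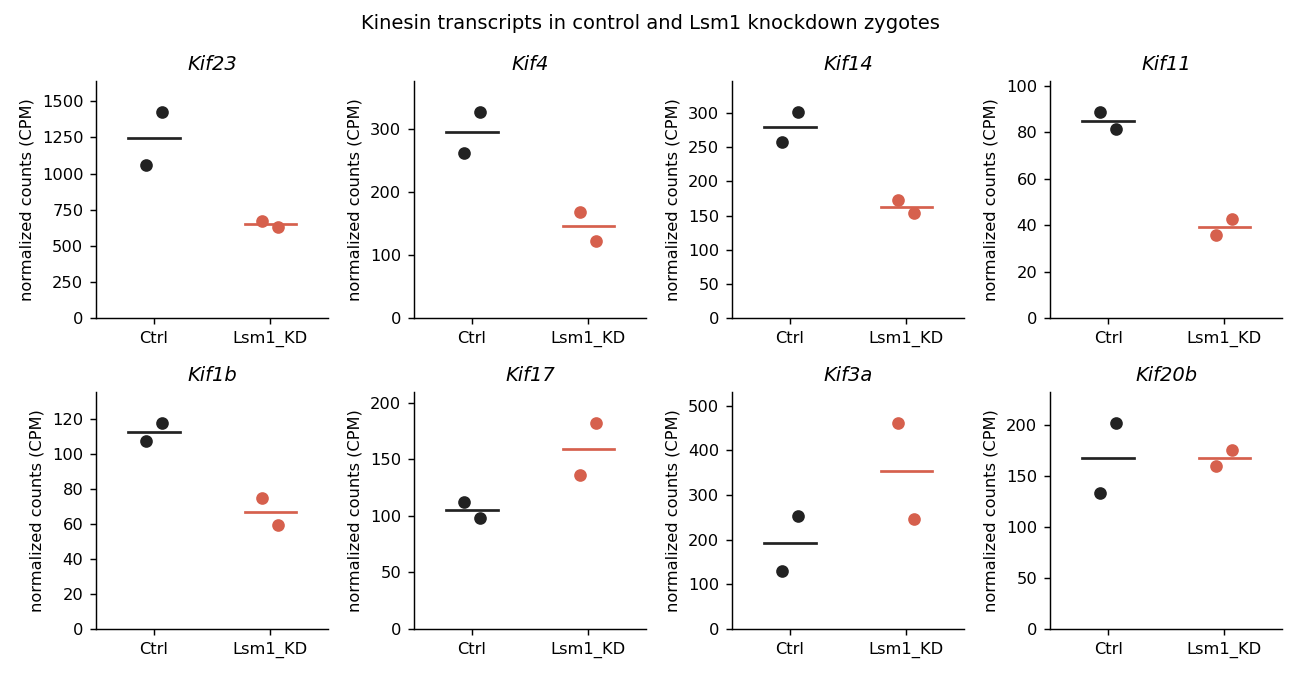
Normalized counts (CPM, vertical axes from 0) of 8 kinesin genes in the 2 Ctrl and 2 Lsm1_KD libraries, with each library as a point and the group mean as a line. In Kif23, Kif4, Kif14, Kif11 and Kif1b both knockdown points lie below both controls, in Kif17 they lie above, and in Kif3a and Kif20b the groups overlap.

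Single libraries decided some of these calls. Without Lsm1_KD replicate 2 the edgeR adjusted p was 0.0706 for Kif23, 0.121 for Kif4 and 0.176 for Kif14, and without Lsm1_KD replicate 1 it was 0.0594 for Kif11. Without Ctrl replicate 2 it was 0.0512 for Kif4 and 0.121 for Kif14. All 4 log2 fold changes stayed below 0 in each of these fits, between -1.28 and -0.69.

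The other spindle motors had smaller or more variable differences. Kif20b, a midbody motor, had 159.5 and 176 CPM in Lsm1_KD and 134 and 202 CPM in Ctrl, and the groups overlapped (log2 fold change 0.00, standard error 0.24). Kif20a had 123 and 123 CPM against 87.1 and 212 CPM, also with overlap. Kif2a and Kif2c depolymerise microtubules from their ends. Kif2a had 144 and 168 CPM against 117 and 117 CPM, and Kif2c 36.5 and 42.7 CPM against 56.8 and 43.9 CPM, so they lay on opposite sides of 0 without passing the test (edgeR adjusted p = 0.233 and 0.452). Kif18a, which limits chromosome movement at the metaphase plate, had 75.0 and 70.2 CPM against 99.1 and 85.2 CPM. Kif22 had 26.5 and 12.4 CPM against 30.6 and 44.9 CPM, and its log2 fold change of -0.98 had a standard error of 0.40 (edgeR adjusted p = 0.144). Kif15, which can stand in for Kif11, had 9.12 and 4.59 CPM against 13.1 and 13.6 CPM, without overlap but with an edgeR adjusted p of 0.232. Kif18b, Kifc1 and Kifc5b lay below 20 CPM in all 4 libraries with log2 fold changes of -0.10, 0.33 and 0.83. Of the 14 spindle kinesins tested, 0 rose, 4 fell and 10 did not pass, while 6.45% of all features rose and 4.56% fell. Their median log2 fold change was -0.35 against 0.01 over all features.

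Among 13 tested transport kinesins 0 rose and 0 fell, with a median log2 fold change of -0.18. In edgeR 2 of them, Kif17 and Kif3a, lay above 0 at an unadjusted p under 0.05. At the same threshold Kif1b, Kif3b and Kif5c lay below 0 (log2 fold changes -0.75, -0.61 and -0.53). Kif17, a homodimeric kinesin-2, had 136 and 182 CPM in Lsm1_KD and 112 and 98.2 CPM in Ctrl (log2 fold change 0.60, standard error 0.23, edgeR adjusted p = 0.120). Kif3a had 462 and 245 CPM against 131 and 254 CPM. Its groups overlapped and its log2 fold change of 0.88 had a standard error of 0.34 (edgeR adjusted p = 0.130). Kif3b, the usual partner of Kif3a in kinesin-2, lay on the other side of 0 with 42.9 and 36.8 CPM against 69.2 and 51.9 CPM (log2 fold change -0.61, edgeR adjusted p = 0.176). The 3 tested kinesins of the cilium, Kif9, Kif24 and Kif27, had log2 fold changes of -1.82, -0.73 and -1.20, none past the test, and Kif9 and Kif27 stayed below 10 CPM.

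Over all 32 tested kinesins 21 had a log2 fold change below 0 and 11 above, with a median of -0.35. Both knockdown libraries lay below both controls in 16 kinesins (50% of the 32, against 28.6% of all features) and above both in 5 (15.6%, against 29.3%). Their mRNAs are long, with a median of 5134 nt against 2903 nt over all features, and the change varied with length. With all features split by length into 5 equal bins, from the shortest to the longest, the median log2 fold change was 0.43, 0.00, -0.05, -0.05 and -0.15. With a smooth trend on length taken out, the kinesin median was -0.26, Kif23, Kif11 and Kif4 were called lower (edgeR adjusted p = 0.0277, 0.0311 and 0.0255), and Kif14 was not (edgeR adjusted p = 0.0735). Taken as log2(TPM + 1) in limma, which moved the median of all features to -0.23, the kinesin median was -0.61 and the same 4 genes were called lower. On that scale 424 of all features were higher and 848 lower, while edgeR gave 731 and 517.

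**Figure D3:**
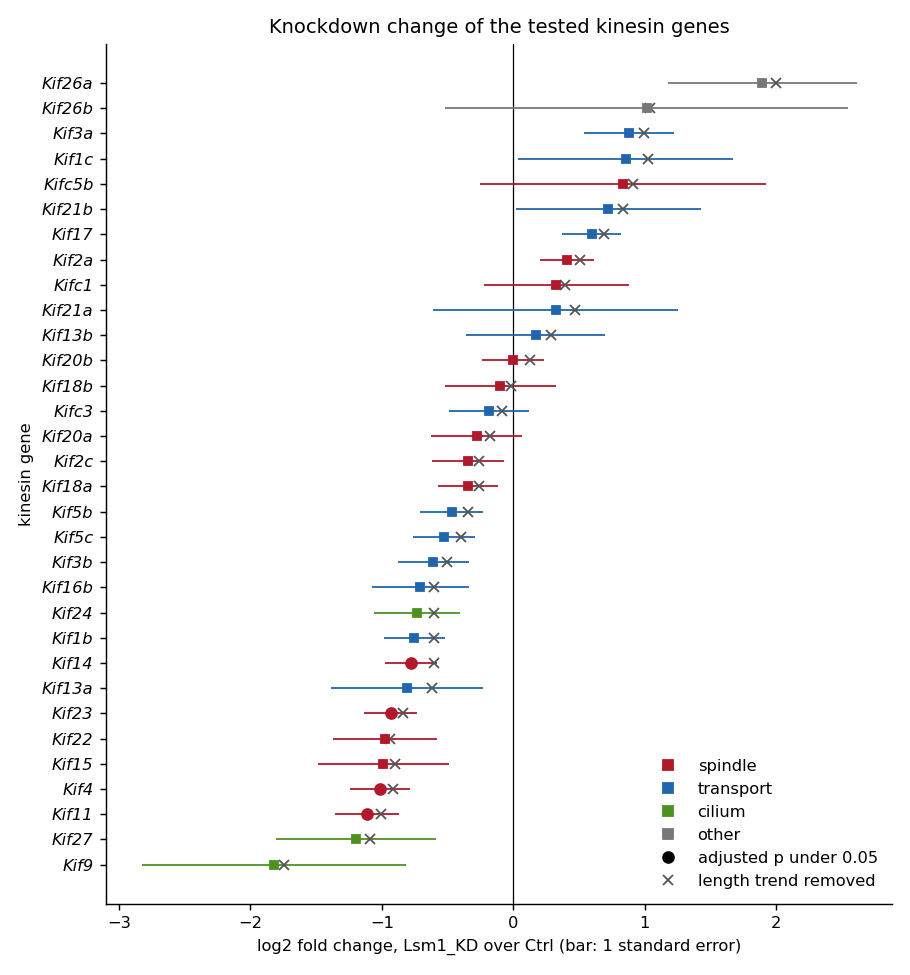
Log2 fold change of each of the 32 tested kinesin genes in Lsm1_KD over Ctrl, with bars of 1 standard error from edgeR, colours for the class of motor and crosses for the value with the length trend removed. The 4 round markers, Kif11, Kif4, Kif23 and Kif14, passed an adjusted p under 0.05 and are all spindle motors, and most crosses lie to the right of their marker.

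The promoters of these 4 genes are shown because genes of mitosis often carry a CCAAT box and a CHR element (TTTGAA), a pair through which cell cycle genes are switched on before division. RefSeq promoters (GRCm38.p6) were found for 33 of the 41 members, 37 promoters in all. The 250 bases before the start site were searched for TTTGAA and CCAAT on both strands, so that TTCAAA and ATTGG are the same motifs read on the other strand. They are printed from 5′ to 3′ on the strand of the gene, with motif matches in capitals.
Kif23, chr9:61946800-61947049, minus strand: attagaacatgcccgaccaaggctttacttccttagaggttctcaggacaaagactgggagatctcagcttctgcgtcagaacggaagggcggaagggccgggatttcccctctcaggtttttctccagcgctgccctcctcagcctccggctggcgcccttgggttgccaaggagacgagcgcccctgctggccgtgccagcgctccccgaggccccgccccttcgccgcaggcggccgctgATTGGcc
Kif11, chr19:37376132-37376381, plus strand: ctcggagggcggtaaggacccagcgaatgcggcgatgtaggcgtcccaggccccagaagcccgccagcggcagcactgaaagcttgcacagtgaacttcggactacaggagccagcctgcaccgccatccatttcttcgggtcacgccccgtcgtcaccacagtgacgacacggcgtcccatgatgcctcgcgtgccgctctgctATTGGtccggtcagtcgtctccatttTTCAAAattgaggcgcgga
Kif4, chrX:100625815-100626064, plus strand: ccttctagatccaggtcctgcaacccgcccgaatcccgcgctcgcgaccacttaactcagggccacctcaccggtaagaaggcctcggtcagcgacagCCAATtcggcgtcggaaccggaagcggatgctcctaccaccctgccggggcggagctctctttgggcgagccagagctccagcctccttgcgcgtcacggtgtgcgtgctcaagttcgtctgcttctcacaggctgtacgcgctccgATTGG
Kif14, chr1:136467598-136467847, plus strand: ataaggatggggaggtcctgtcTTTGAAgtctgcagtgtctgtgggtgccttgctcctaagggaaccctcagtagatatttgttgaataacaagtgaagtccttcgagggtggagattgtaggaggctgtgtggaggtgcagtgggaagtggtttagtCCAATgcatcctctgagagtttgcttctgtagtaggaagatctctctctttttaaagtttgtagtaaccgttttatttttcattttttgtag
All 4 held a CCAAT match and Kif11 and Kif14 also held TTTGAA. In Kif11 the match to TTTGAA began 19 bases and that to CCAAT 45 bases before the start site. The CCAAT matches began 7 bases before it in Kif23, 152 and 5 bases before it in Kif4 and 92 bases before it in Kif14, whose TTTGAA began 228 bases before it. The Kif14 start used by RefSeq lies inside the span of the gene record, so that its window lies within the gene. Among all 37 kinesin promoters 45.95% held CCAAT, 21.6% TTTGAA and 13.5% both, against 33.85%, 16.0% and 5.55% of all 32851 promoters of the same length. A match is a description of the letters, and no binding was measured here.

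Partners of the kinesins were mixed, and across all features 6.45% were called higher and 4.56% lower in Lsm1_KD. Of 13 tested light chains, adaptors and related proteins, with the motor Cenpe among them, 0 rose and 0 fell in Lsm1_KD (median log2 fold change -0.22). Among 18 genes of the central spindle, the passenger complex and spindle assembly, 1 fell and 1 rose. Tacc3, which stabilises spindle microtubules, had 235 and 222 CPM in Lsm1_KD and 516 and 512 CPM in Ctrl (log2 fold change -1.17, standard error 0.18, edgeR adjusted p = 0.00485). Nusap1, which bundles spindle microtubules, had 463 and 571 CPM against 284 and 293 CPM (log2 fold change 0.84, standard error 0.19, edgeR adjusted p = 0.0228). Dynein is the motor that walks opposite to most kinesins. Of 24 tested dynein and dynactin genes 3 rose and 3 fell. The light chain Dynll2 had 386 and 447 CPM in Lsm1_KD and 139 and 142 CPM in Ctrl (log2 fold change 1.57, standard error 0.20, edgeR adjusted p = 0.00180), and Dynll1 also rose (log2 fold change 2.28, edgeR adjusted p = 0.00640). The heavy chain Dync1h1 had 3.56 and 1.75 CPM against 12.5 and 20.0 CPM (log2 fold change -2.67, standard error 0.57, edgeR adjusted p = 0.0172), and the light chain Dynlt3 fell by 1.32 on the log2 scale (edgeR adjusted p = 0.0118). Of 12 tested tubulin genes only Tubb5 passed, higher at 151 and 35.6 CPM against 13.3 and 30.6 CPM (edgeR adjusted p = 0.0470).

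Injection of Lsm1_3XFlag mRNA left the kinesins of the input little different from the control input. Of 35 tested members 0 rose and 0 fell by edgeR, and DESeq2 called 0. At an unadjusted p under 0.05 in edgeR, 1 was higher, Kif5a, below 1 CPM throughout (2.86%, against 2.75% of all features). Across 14592 features only Lsm1 itself was called (0.00685% higher and 0% lower). The median log2 fold change of the kinesins was -0.08. Kif23 had 867 and 889 CPM in the FLAG Input and 875 and 939 CPM in the Ctrl Input, with overlapping groups. Kif14 had 552 and 569.8 CPM against 529 and 587 CPM, Kif11 80.2 and 98.2 CPM against 97.7 and 100.3 CPM, and these groups overlapped too. Kif4 had 252 and 262 CPM against 271 and 307 CPM, a log2 fold change of -0.17 (standard error 0.12, edgeR adjusted p = 0.936). Without FLAG Input replicate 2, edgeR called 2 kinesins higher and 6 lower, with 790 and 1041 features called in all.

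The pull-down asked which RNAs were enriched with FLAG-tagged LSM1. In FLAG IP over FLAG Input 6 of 41 tested kinesins were higher and 0 lower by edgeR, and in Ctrl IP over Ctrl Input 0 and 0. Of all 18972 features 21% were higher and 5.48% lower in the former, and 2.12% and 0.00527% in the latter. At an unadjusted p under 0.05 in edgeR, 10 kinesins were higher and 5 lower in the FLAG ratio (24.4% and 12.2%, against 32.5% and 14.1% of all features). In the Ctrl ratio 5 were higher and 0 lower (12.2% and 0%, against 16.3% and 0.733%). DESeq2 called 9 and 4 kinesins in the FLAG ratio, with 5404 and 2205 features called in all. In the Ctrl ratio it called 0 and 0 kinesins, with 1343 and 7 features in all. The 2 ratios were set against each other in the same fit, and there 0 kinesins and 0% of all features were called in either direction. At an unadjusted p under 0.05 in that test, 2 kinesins were above 0 (4.88%, against 3.99% of all features). They were Kif1a (log2 difference 3.86, edgeR adjusted p = 0.79) and Kif15 (log2 difference 1.42, edgeR adjusted p = 0.79), and DESeq2 called 0 kinesins.

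The 6 higher kinesins were mostly motors with little or no RNA in the input. Kif1a, a neuronal vesicle motor, had 0.255 and 0.244 CPM in the FLAG Input and 19.9 and 5.16 CPM in the FLAG IP, while the Ctrl libraries held 0.354 and 0.535 CPM before and 2.06 and 1.001 CPM after the pull-down (edgeR adjusted p = 0.00404 for the FLAG ratio). Kif5a, a neuronal kinesin heavy chain, had 0.850 and 0.895 CPM in the FLAG Input and 20.7 and 4.67 CPM in the FLAG IP, and in Ctrl it went from 0.390 and 0.223 CPM to 2.48 and 0.723 CPM. Kif7, a regulator of Hedgehog signalling at the cilium tip, had 0.468 and 0.122 CPM in the FLAG Input and 20.0 and 1.23 CPM in the FLAG IP. In Ctrl, Kif7 went from 0.106 and 0.0446 CPM to 1.03 and 0.723 CPM, so that the second FLAG IP lay near the first Ctrl IP. The log2 ratio in Ctrl was 2.33 for Kif5a and 3.39 for Kif7 (edgeR adjusted p = 0.208 and 0.212). In all 3 genes FLAG IP replicate 1 was the higher of the pair. In 2 further genes the input was nearer 0: Kif6 had 1 and 4 counts in the FLAG Input and 77 and 23 in the FLAG IP, and Kif12 had 0 and 1 counts against 56 and 16. In Ctrl, Kif6 had 3 and 3 counts in the input and 5 and 2 in the IP. For Kif12 the FLAG ratio of summed counts, scaled to the libraries, was 113 with an exact (Clopper-Pearson) 95% interval of 19.7 to 4541, which covers counting error only. Kif12 passed the abundance filter through its IP libraries, so a high ratio was partly built in and the interval cannot serve as a test of enrichment. The Ctrl pull-down of Kif12 also held more than its input, with 8 and 5 counts against 0 and 0, and the FLAG and Ctrl ratios of Kif12 were not told apart (edgeR adjusted p = 0.862).

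Kif27, a close relative of Kif7, was the only one of the 6 above 1 CPM in the input. It had 5.19 and 16.1 CPM in the FLAG Input, 43.0 and 27.8 CPM in the FLAG IP, and for Ctrl 14.1 and 15.9 CPM before and 25.0 and 17.9 CPM after the pull-down. The FLAG groups did not overlap, and neither did the Ctrl groups (log2 ratio 1.74, edgeR adjusted p = 0.0256 for FLAG, and 0.52, edgeR adjusted p = 0.68 for Ctrl). Just outside the threshold lay Kif15 (log2 ratio 1.13, edgeR adjusted p = 0.0616) and Kif17 (log2 ratio -1.42, edgeR adjusted p = 0.0617).

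Features under 1 CPM in the FLAG Input pass the abundance filter mainly through the IP libraries, so a high ratio among them is partly built in. Among 6342 such features 40.6% were called higher, against 5 of 8 kinesins of that range. Without FLAG IP replicate 1, which holds the excess of repeat counts, only Kif1a of the 6 remained. In another fit the lysate that an IP and its input share was kept as a block. There Kif16b and Kifc3, both transport motors, were also called lower in the FLAG ratio. That made 6 kinesins higher and 2 lower, with 4157 and 1894 features called in all. Kif7 was called higher in the Ctrl ratio of that fit, with 1436 features higher in all. On log2(TPM + 1) in limma 0 kinesins were higher and 7 lower in the FLAG ratio, with 489 and 2331 features called in all.

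The 33 kinesins with at least 1 CPM in the FLAG Input lay mostly below 0 in both pull-downs. In the FLAG ratio 23 of them (69.7%) were below 0 with a median log2 ratio of -0.60, and in the Ctrl ratio 25 (75.8%) with a median of -0.31. Over all 12630 features of that range 62.2% and 60.5% were below 0, with medians of -0.39 and -0.12. By lysate the kinesin median was -0.99 and -0.27 for FLAG and -0.30 and -0.30 for Ctrl, and in all 4 lysates it was below the median of all features, which ran from -0.67 to -0.12. The first FLAG lysate stood lowest for kinesins and for all features alike.

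The 4 kinesins that fell in the knockdown were not called in the FLAG ratio. Kif23 had 965 and 994 CPM in the FLAG Input and 288 and 920 CPM in the FLAG IP, so that the libraries of the IP differed more from each other than the second of them did from the input (log2 ratio -0.70, standard error 0.71). Kif14 showed the same split, with 614 and 637 CPM in the input and 175 and 560 CPM in the IP (log2 ratio -0.77, standard error 0.65). Kif4 went from 281 and 293 CPM to 68.3 and 201 CPM (log2 ratio -1.09, standard error 0.56), and Kif11 from 89.2 and 109.8 CPM to 93.4 and 134 CPM (log2 ratio 0.19, standard error 0.38). Kif20b also differed between the pull-downs, at 639.9 CPM in the second FLAG pull-down, where only Kif23 was higher, against 135 CPM in the first, with 249 and 279.95 CPM in the input. Its log2 ratio of 0.55 (standard error 0.67, edgeR adjusted p = 0.516) rested on which IP library was kept, at 1.24 without FLAG IP replicate 1 (edgeR adjusted p = 0.0109) and -0.97 without FLAG IP replicate 2 (edgeR adjusted p = 0.00650). The Ctrl IP of Kif20b was also above its input, at 329 and 528 CPM against 255 and 271 CPM (log2 ratio 0.70, standard error 0.67).

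**Figure D4:**
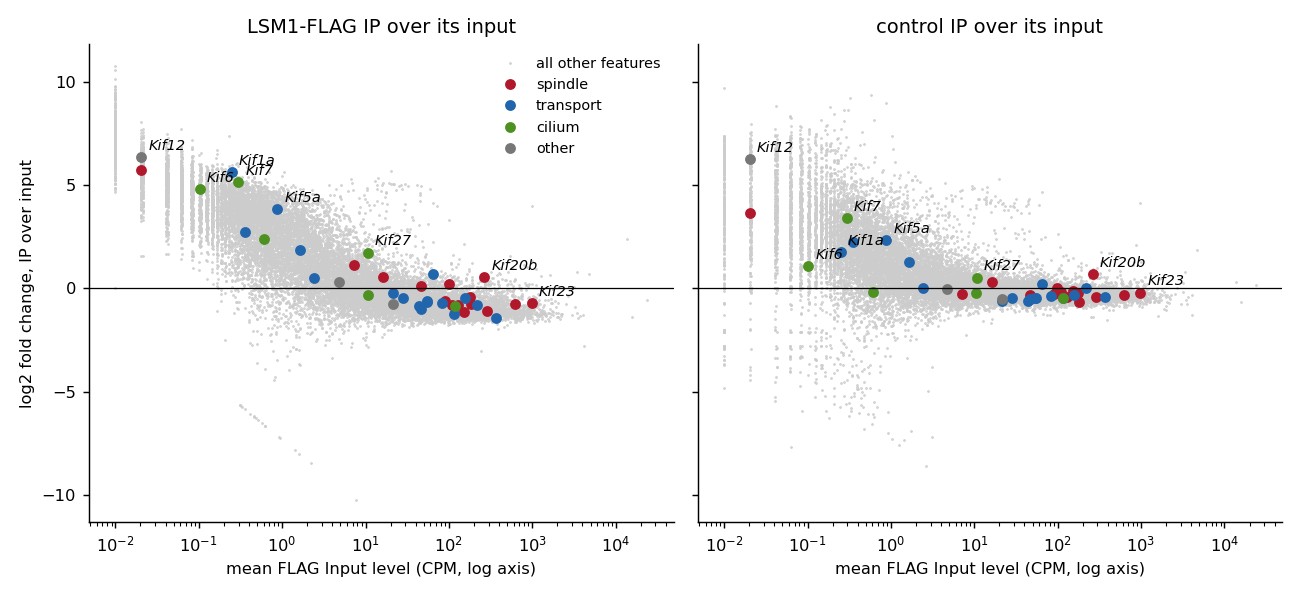
Log2 fold change of IP over input against the mean level in the FLAG Input (CPM, log axis, with features below 0.01 drawn at 0.01) for all 18972 tested features in grey and the 41 kinesins in colour by class, for the FLAG pull-down at left and the Ctrl pull-down at right. In both panels the features with the least input RNA have the highest ratios, Kif1a, Kif6, Kif7 and Kif12 lie in that region, and the abundant kinesins lie near or below 0.

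Of the partner genes, Mapk8ip1, an adaptor of kinesin-1, was the only one of 17 called in the FLAG ratio (higher, from 0.255 and 0.366 CPM to 10.1 and 2.54 CPM, edgeR adjusted p = 0.0137). Its input lay under 1 CPM, where a high ratio is partly built in. Across all features 21% were called higher and 5.48% lower in that ratio. None of the 18 central spindle genes was called. Of 26 dynein and dynactin genes 3 were lower, among them Dynlrb1 (log2 ratio -1.21, edgeR adjusted p = 0.0302) and Dctn2 (log2 ratio -1.16, edgeR adjusted p = 0.0324). Of 15 tubulin genes 2 were higher, Tuba8 and Tuba1a, and 3 lower, among them Tuba3a and Tubb2b. None of these lists held a called gene in the difference between the FLAG and Ctrl ratios.

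Several kinesins have more than 1 RefSeq transcript, and the estimated counts split reads among them. KIFC3 is a minus-end-directed motor of epithelial junctions and vesicles. The shortest of its 3 transcripts (2927 nt) took 71.8% and 71.0% of Kifc3 TPM in Lsm1_KD and 78.3% and 84.0% in Ctrl, but at most 3.96% in the 7 RIP-seq libraries other than FLAG IP replicate 1, where it took 43.3%. The experiments thus differed without overlap, while Lsm1_KD and Ctrl lay closer together. The longer transcript of Kif2a (4208 nt) took at most 0.216% in the RNA-seq and 1.23% to 3.53% in the inputs. It took more than in any input in both pull-downs, with 14.5% and 5.09% in the Ctrl IP and 68.2% and 26.5% in the FLAG IP libraries. The shorter transcript of Kif17 (3083 nt) took 39.6% and 52.9% in Lsm1_KD and 36.6% and 30.8% in Ctrl. In Kif3a the 5441 nt and 5450 nt transcripts shared most of the signal in every library. These shares are estimates without a test, and the library kit and the experiment cannot be told apart.

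**Figure D5:**
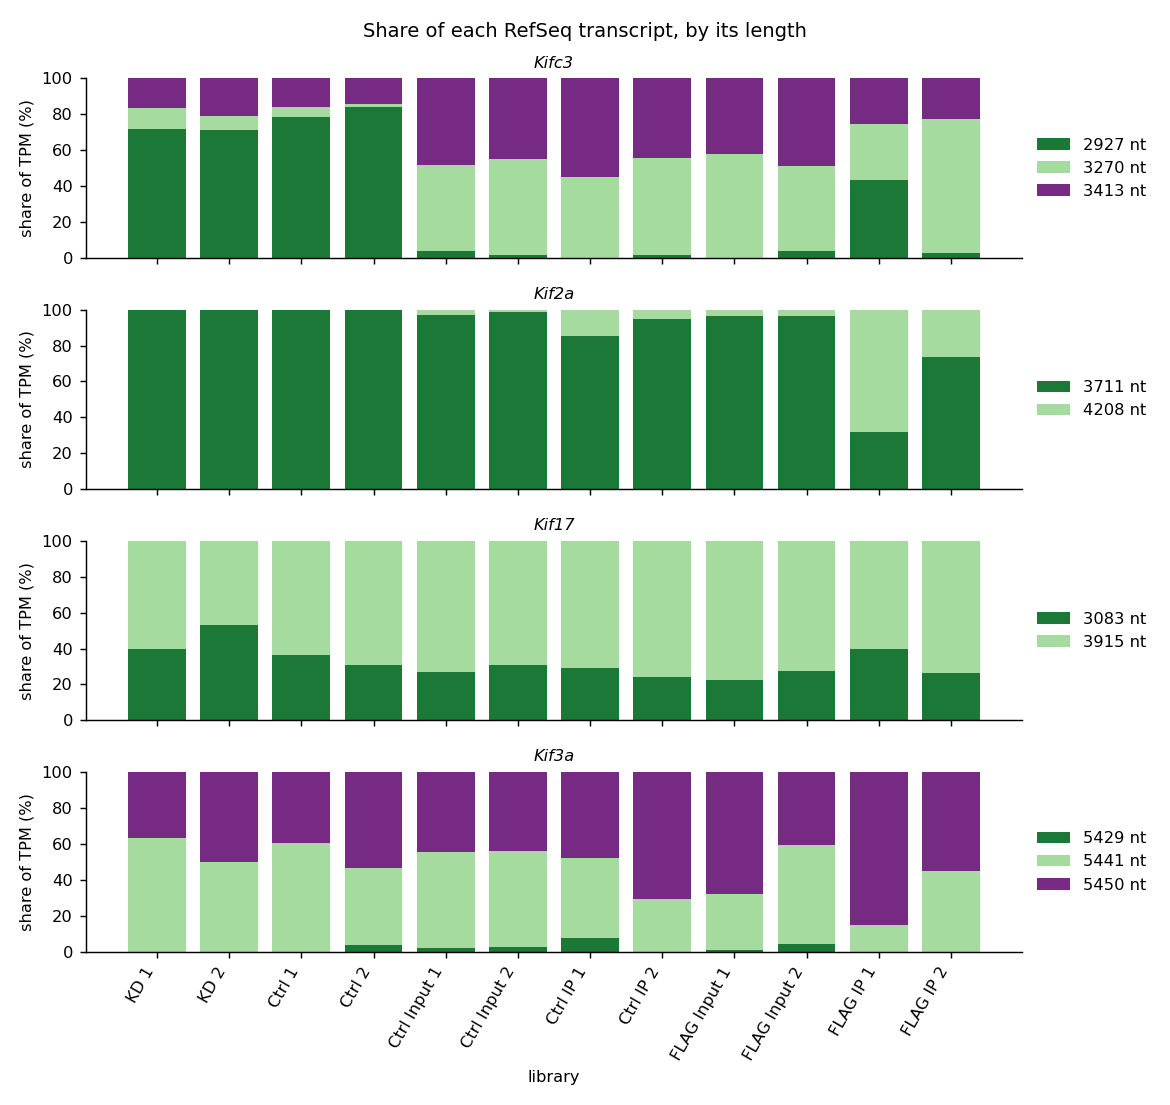
Share of the TPM of Kifc3, Kif2a, Kif17 and Kif3a (vertical axes, 0 to 100%) that each RefSeq transcript took in each of the 12 libraries, stacked and coloured by transcript length. The shortest Kifc3 transcript dominates the 4 RNA-seq libraries and is nearly absent from the RIP-seq libraries except FLAG IP 1, and the longer Kif2a transcript is largest in FLAG IP 1.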

How the data were processed

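Per the submitters' notes and the study's methods, the authors trimmed the reads, checked them with FastQC and quantified RefSeq transcripts and repeats with Salmon (mm10). The deposited tables hold estimated counts and TPM per transcript, both by the authors. The trimming tool is given differently by the labels and the methods. Counts of 37072 of 37366 RefSeq transcripts were summed by gene symbol and rounded, since 55.5% of nonzero counts were not whole. Members and lists were chosen with earlier results of these data known.

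edgeR 4.0.16 (R 4.3.3) was used for TMM normalization, filterByExpr and quasi-likelihood tests, with Benjamini-Hochberg adjustment over all tested features and calls at an adjusted p under 0.05. The 4 RNA-seq libraries, the 4 inputs and the 8 RIP-seq libraries were fitted separately. Alternatives used DESeq2 1.42.0, limma 3.58.1, other scalings, filters and length corrections, and left out each library. The fits were tested on simulated data.

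An IP and its input share a lysate by the study's methods, and the correlation of their deviations from group means was 0.115 for FLAG and 0.058 for Ctrl. Named were kinesins called in any comparison, the 10 highest in Ctrl by TPM, the spindle kinesins, those nearest the threshold, and in partner lists up to 2 genes per direction with the smallest adjusted p. Others were named after their values were seen. Sequences come from RefSeq (GRCm38.p6). Intervals and limits for counts of 0 cover counting error only, as the reads carried no molecular identifiers used here.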

Additional observations from a re-analysis of the deposited data

How the results depend on the processing

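In the knockdown, edgeR's 0 higher and 4 lower kinesins became 1 and 6 without a filter on low counts. With the replicate number as a block they became 0 and 2 (Kif23 and Kif4), and Kif11 and Kif14 had edgeR adjusted p of 0.0538 and 0.0921. Over all features the main fit called 731 higher and 517 lower. The fit without a filter called 1033 and 924, and the block 426 and 217. The replicate numbers of these groups are shared numbers only, with a correlation of -0.112 between same-numbered libraries. A crossed block, chosen after seeing the data, gave 3 higher and 7 lower, with 1392 and 1224 features called in all. Leaving out 1 library gave 0 to 1 higher and 2 to 5 lower. In the inputs it gave 0 to 2 higher and 0 to 6 lower, the highest without FLAG Input replicate 2. In FLAG IP over input, 6 higher and 0 lower became 9 and 4 with DESeq2 and 6 and 2 without a filter. They became 6 and 2 with the replicate block, and 0 and 7 with limma on log2(TPM + 1). Over all features the main fit called 3975 higher and 1040 lower. In the same order, the other fits called 5404 and 2205, 4929 and 1775, 4157 and 1894, and 489 and 2331. Leaving out 1 library gave 1 to 12 higher and 0 to 20 lower, with 12 and 20 without FLAG IP replicate 2. Kif20b ran from -0.97, a reversal, without FLAG IP replicate 2 to 1.24 without FLAG IP replicate 1. In Ctrl IP over input, 1 kinesin was higher without a filter and 1 with the replicate block. When only those 4 libraries were fitted, 1 was higher and 1 lower, with 2227 and 492 features called in all. Over all features 403 were higher in the main fit, 1597 without a filter and 1436 with the block. In the difference of the ratios, leaving out 1 library gave 0 to 2 higher and 0 to 16 lower, again without FLAG IP replicate 2. Beyond the blocked values given here and in the report, the block changed no other call. Without FLAG IP replicate 2, calls over all features also rose in both directions, in the FLAG ratio and in the difference of the ratios. Whether the larger kinesin counts of those fits were particular to kinesins was not tested. The cause of the changes in calls was not tested. Of 126 values of single kinesins in the knockdown under other settings, 121 kept their direction and side of the threshold or, uncalled, stayed uncalled, 3 were no longer called, 2 became called and 0 reversed. In the knockdown 9 kinesins had too few counts to be tested.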
